A study of Mus musculus with 3 samples.

Results

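The mitochondrial ribosome and respiratory complex I genes of the mouse were examined for FOXF1 binding sites in fetal lung. They were taken by symbol, as protein-coding RefSeq genes on the nuclear chromosomes named Mrpl or Mrps with a number, or starting with Nduf, which gave 127 of 21887 genes. FOXF1 is a forkhead transcription factor of the lung mesenchyme and endothelium. Its chromatin immunoprecipitation was sequenced from whole lungs of wild-type C57BL/6 embryos aged 18.5 embryonic days, as 2 biological replicates that each pooled 3 lungs, with a 2% input as the control for peak calling. There was 1 group and no other genotype, treatment or age, so no contrast between conditions could be tested, and whole lung mixes all its cell types.

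Mitochondria translate the few proteins of their own genome on a dedicated ribosome, the mitoribosome, whose proteins are all encoded in the nucleus and imported. Complex I passes electrons from NADH to ubiquinone and pumps protons. Its catalytic core is split between nuclear and mitochondrial genes, and nuclear genes also supply accessory subunits and assembly factors. The promoters of such genes are known for binding the ETS factor GABP, NRF1 and YY1.

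A site was counted as shared when a summit of each replicate was the other's nearest and they lay at most 100 bp apart. It was placed midway, and a gene carried it when it lay within 5 kb of either annotated end. The lists held 107388 summits in replicate 1 and 61178 in replicate 2, and 51013 nuclear sites were shared. Each score is a −log10 significance from the authors' peak caller, and the sources used here do not say whether of a p or a q value. Scores depend on sequencing depth, which is unknown, so the scores of a site are printed side by side, replicate 1 first. Of the marker genes of lung tissue checked for a site, Foxf1 itself had 5, Tcf21 of the mesenchyme 4, Kdr, Cdh5 and Pecam1 of the endothelium 3 each, and Nkx2-1, Sftpc and Hopx of the epithelium 2, 2 and 3. The blood marker Spi1 and the neuronal marker Rbfox3 had 1 each, Ptprc and Snap25 had none, and the files hold no expression. These 12 markers had a mean of 2.25 sites, beside 0.862 over all protein-coding genes. They are also longer, with a median length of 38139 bp beside 17169 bp.

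Of the 127 genes, 106 carried a shared site, or 83.5% (exact 95% interval 75.8 to 89.5), beside 54.4% of all protein-coding genes. The share was close to even across most of the machinery. Sites were found at 41 of 49 large-subunit (Mrpl) genes, 25 of 29 small-subunit (Mrps) genes, 28 of 32 accessory subunits of complex I, 7 of 8 Ndufaf assembly factors, and both genes of the Ndufa4 family, whose founding member is now assigned to complex IV. The exception was the catalytic core, where 3 of 7 nuclear genes had one, or 42.9% with an exact interval of 9.90 to 81.6 that overlaps those of the other groups. Intervals throughout cover counting error only. The groups follow symbols: Mrps18a and Mrps30 have small-subunit names although their products sit in the large subunit.

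**Figure D1:**
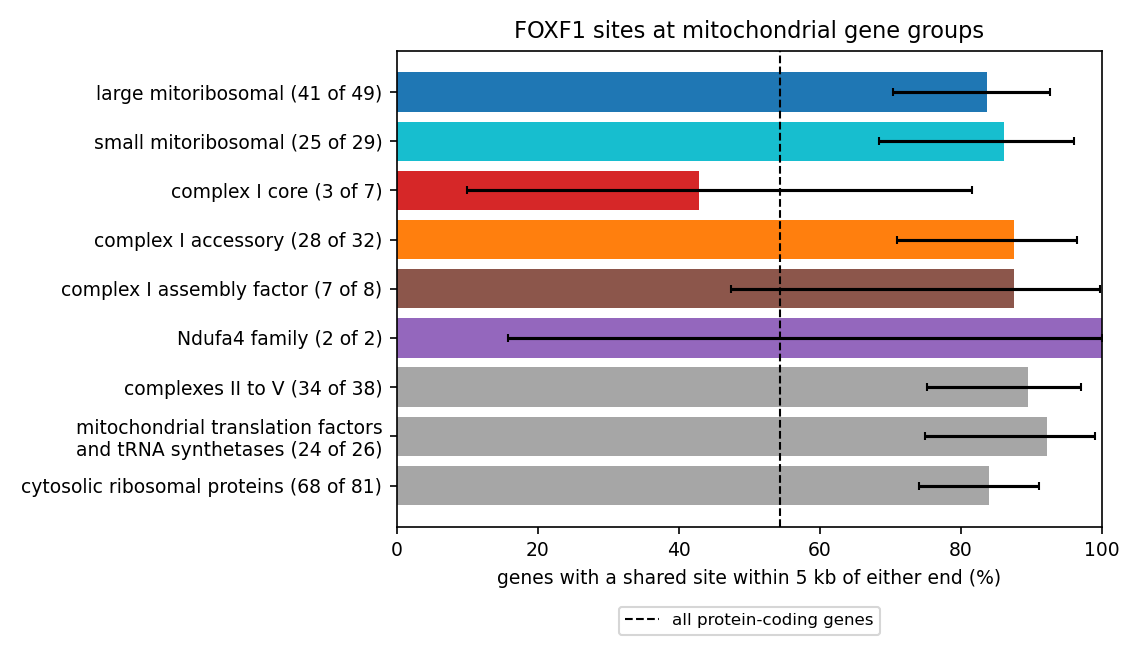
Bars give the share of genes (x axis, percent) with a shared FOXF1 site within 5 kb of either end, by gene group, with exact 95% intervals as error bars, and the dashed line is the 54.4% of all protein-coding genes. The core complex I genes have the lowest share among the groups drawn, 42.9%, with a wide interval from 7 genes.

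To show where sites sit in relation to the promoter letters, the promoter windows of 8 genes follow, chosen after their values were seen. Each runs from 250 bases before to 50 after the first start listed by RefSeq on GRCm38.p6, the assembly of mm10, and is written 5′ to 3′ on the gene's strand. Capitals mark the forkhead (TGTTTAC), ETS (CCGGAAG), NRF1 (CGCATGCG), YY1 (AAGATGGCG) and cyclic AMP response element (TGACGTCA) letters, or their reverse complements. Ndufs7, Mrps18a and Mrps27 show YY1 letters, Ndufaf1 and Mrpl40 forkhead letters, Mrpl57 an ETS match, and Ndufs3 a core gene without a shared site. Ndufaf4 is the gene whose highest-scored site has the lowest score. Positions below count the start base as 0, and a motif is placed by its first base on the gene's strand.
Ndufs7: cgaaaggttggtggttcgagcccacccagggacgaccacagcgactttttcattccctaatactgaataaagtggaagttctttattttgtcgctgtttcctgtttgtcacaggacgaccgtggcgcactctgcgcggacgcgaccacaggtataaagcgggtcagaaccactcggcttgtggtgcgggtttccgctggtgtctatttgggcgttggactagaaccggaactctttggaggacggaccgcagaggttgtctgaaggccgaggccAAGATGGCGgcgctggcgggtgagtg
Mrps18a: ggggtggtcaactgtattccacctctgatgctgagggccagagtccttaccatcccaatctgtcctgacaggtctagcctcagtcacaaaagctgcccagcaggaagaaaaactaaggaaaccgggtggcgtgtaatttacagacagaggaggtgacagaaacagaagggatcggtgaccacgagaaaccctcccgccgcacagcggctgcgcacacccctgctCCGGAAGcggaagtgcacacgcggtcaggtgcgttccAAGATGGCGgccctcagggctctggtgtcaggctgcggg
Mrps27: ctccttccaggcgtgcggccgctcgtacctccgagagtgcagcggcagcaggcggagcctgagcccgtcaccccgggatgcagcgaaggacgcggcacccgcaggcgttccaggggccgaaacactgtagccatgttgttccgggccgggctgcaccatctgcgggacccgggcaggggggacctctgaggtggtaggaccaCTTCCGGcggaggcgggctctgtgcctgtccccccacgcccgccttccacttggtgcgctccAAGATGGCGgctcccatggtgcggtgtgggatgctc
Ndufaf1: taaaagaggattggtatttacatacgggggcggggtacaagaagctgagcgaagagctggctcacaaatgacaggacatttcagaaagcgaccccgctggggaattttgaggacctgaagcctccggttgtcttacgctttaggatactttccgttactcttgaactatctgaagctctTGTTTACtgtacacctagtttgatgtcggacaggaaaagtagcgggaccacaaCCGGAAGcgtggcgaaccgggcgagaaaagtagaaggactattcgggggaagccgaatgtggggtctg
Mrpl40: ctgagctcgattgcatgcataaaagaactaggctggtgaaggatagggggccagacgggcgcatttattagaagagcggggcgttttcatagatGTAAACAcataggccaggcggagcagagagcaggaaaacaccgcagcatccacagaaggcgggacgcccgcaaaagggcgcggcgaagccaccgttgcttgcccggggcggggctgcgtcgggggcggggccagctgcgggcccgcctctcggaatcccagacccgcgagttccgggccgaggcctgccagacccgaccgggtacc
Mrpl57: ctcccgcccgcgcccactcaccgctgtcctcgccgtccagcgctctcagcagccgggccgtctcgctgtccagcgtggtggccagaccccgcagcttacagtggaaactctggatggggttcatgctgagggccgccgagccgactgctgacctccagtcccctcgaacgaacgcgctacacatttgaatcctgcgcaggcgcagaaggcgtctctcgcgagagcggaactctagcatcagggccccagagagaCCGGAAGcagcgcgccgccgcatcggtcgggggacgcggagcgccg
Ndufs3: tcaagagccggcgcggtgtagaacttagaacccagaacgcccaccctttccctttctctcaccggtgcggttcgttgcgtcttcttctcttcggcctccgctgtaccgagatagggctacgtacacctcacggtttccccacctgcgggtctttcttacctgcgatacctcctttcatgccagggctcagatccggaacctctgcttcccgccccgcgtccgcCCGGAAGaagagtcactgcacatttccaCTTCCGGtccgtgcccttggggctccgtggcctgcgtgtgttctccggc
Ndufaf4: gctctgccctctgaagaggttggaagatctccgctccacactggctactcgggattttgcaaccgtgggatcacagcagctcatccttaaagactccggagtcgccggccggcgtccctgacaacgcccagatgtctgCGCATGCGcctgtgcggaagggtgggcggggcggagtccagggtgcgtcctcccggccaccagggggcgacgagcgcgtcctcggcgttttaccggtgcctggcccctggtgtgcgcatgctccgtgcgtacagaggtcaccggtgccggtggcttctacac

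The windows shown are, in order, chr10:80249199-80249498 (plus strand), chr17:46110754-46111053 (plus), chr13:99344536-99344835 (plus), chr2:119662785-119663084 (minus), chr16:18876588-18876887 (minus), chr14:57825989-57826288 (plus), chr2:90904672-90904971 (minus) and chr4:24897833-24898132 (plus). In the core subunit gene Ndufs7 the shared site lay at +25 and the YY1 letters begin at +24. Mrps18a has YY1 letters beginning at +11 and a site at +48. In Mrps27, a small-subunit gene that also has YY1 letters, beginning at +14, the site lay upstream at −99, 117 bp from them. Ndufaf1, an assembly factor, has forkhead letters beginning at −71 and a site at −60. Mrpl40 has forkhead letters at −156 and a site at −117. Mrpl57 has ETS letters beginning at +4 and a site at +45 scored 57.9 in replicate 1 and 57.3 in replicate 2. Ndufs3 has 2 ETS matches and no shared site, and Ndufaf4 has NRF1 letters and the lowest-scored highest site among the 106 genes with a shared site.

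Most of these genes are short and many lie close to other genes, so the shares were also read within classes of gene length and of local crowding. Among genes under 5 kb, 33 of 38 had a site (86.8%), beside 29.9% of all protein-coding genes of that length. From 5 to 20 kb the share was 84.3% (59 of 70) beside 59.3%, from 20 to 50 kb 72.7% (8 of 11) beside 63.5%, and over 50 kb 75% (6 of 8) beside 63.1%. In the shortest class the share of all genes was lower than in the other classes, while that of the mitochondrial genes was not. With no other protein-coding gene end within 5 kb, 25 of 29 had a site (86.2%) beside 41.2% of all genes. With 1, 2 and 3 or more such neighbours the shares were 77.4%, 86.8% and 100%, beside 65.9%, 76.1% and 79.9%. The share of all genes therefore went up with the number of neighbours, and that of the mitochondrial genes was above it in each class. With 1, 2 and 3 or more neighbours, however, the exact intervals (63.8 to 87.7, 71.9 to 95.6 and 59.0 to 100) held the share of all genes. So did those of genes from 20 to 50 kb (39.0 to 94.0) and over 50 kb (34.9 to 96.8). The part of expression level or open chromatin in these shares was not tested.

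The 106 genes held 155 distinct sites. Of these genes, 68 had 1 site, 26 had 2 and 12 had 3 or more, a mean of 1.24 over all 127 genes beside 0.862 over all protein-coding genes. With sites anywhere in the gene body counted too, the order turned, with a mean of 1.38 beside 1.77. Mrpl4 and Mrpl12 had the most, 4 each. At Mrpl12, whose product also binds the mitochondrial RNA polymerase, the site 112 bp upstream of the start scored 35.7 and 23.7, the one at +7287 scored 27.1 and 20.6, and the 2 others scored 11.0 and 5.53, and 8.78 and 7.23. The 4 sites of Mrpl4 ranged from 17.7 to 96.7 in replicate 1 and from 4.76 to 39.1 in replicate 2. In 150 of the 155 sites replicate 1 had the higher score.

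For each gene the site with the highest mean of both scores was taken as its highest site. Over the 106 genes this mean had a median of 34.9, with a range of 9.86 to 127, beside a median of 39.2 over all protein-coding genes with a site. In replicate 1 the scores ran from 14.2 to 167 with a median of 40.2, and in replicate 2 from 5.48 to 87.1 with a median of 28.8. Sites were thus frequent at these genes, while the median score was below that of all genes. The 2 summits of these highest sites lay a median of 12.5 bp apart, and the 2 scores ranked the genes alike (Spearman's rho 0.892 over the 106 genes, a description, since the sites come from the same 2 samples). Replicate 1 had the higher score in 102 genes, and replicate 2 in Mrpl20, Ndufc1, Ndufb1 and Ndufaf8. Over all protein-coding genes with a site, the median score of the highest site was 46.9 in replicate 1 and 31.1 in replicate 2. Limited to the 10000 highest summits of each replicate, 7 of the 127 genes had a shared site (5.51%), beside 7.01% of all protein-coding genes.

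**Figure D2:**
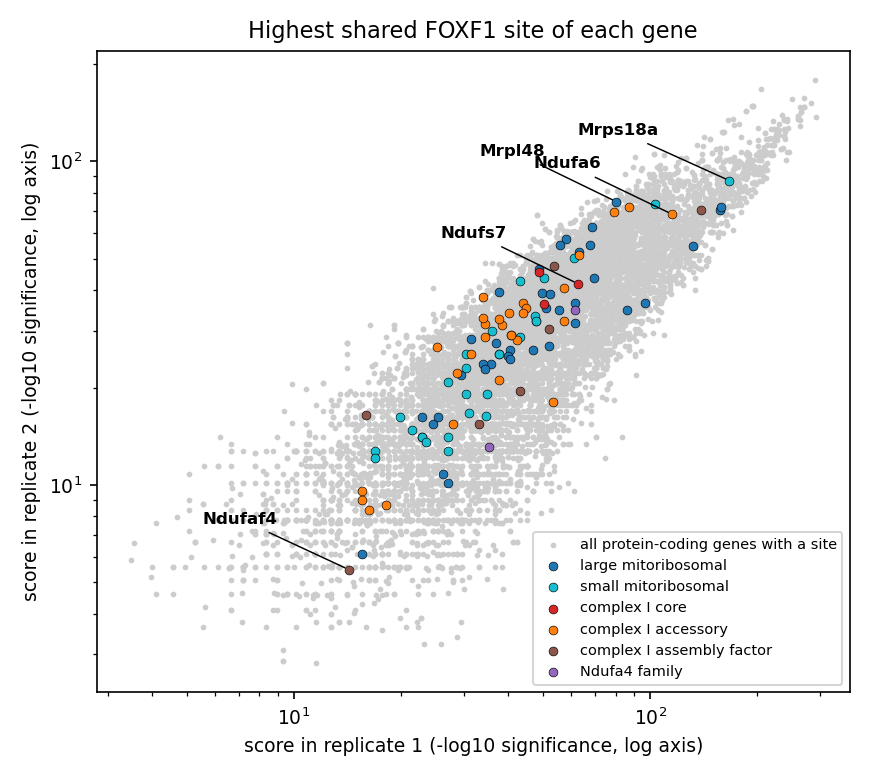
Score of the highest shared site of each gene in replicate 1 (x axis) and replicate 2 (y axis), as −log10 significance on log axes, with the 106 mitochondrial genes coloured by group and all protein-coding genes with a site in grey. The coloured points lie within the grey cloud, from Ndufaf4 at 14.2 and 5.48 to Mrps18a at 167 and 87.1.

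The 2 highest scores stood inside genes, kilobases from the start. Mrps18a, of the S18 family, had the top one, at chr17:46115730, with 167 in replicate 1 and 87.1 in replicate 2, inside the gene and 4726 bp from its start. Its site at the start, at +48, scored 45.0 and 44.6. Mrpl58, a peptidyl-tRNA hydrolase built into the large subunit, had 158 and 72.3 at chr11:115408531, inside the gene and 4779 bp from the start. Its start held a lower-scored shared site too, at +38 with 29.3 and 23.7.

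Mrpl15 had 157 and 70.7 at chr1:4775202, inside the gene. Ndufaf6, a complex I assembly factor, had 139 and 70.9 at chr4:11047762, outside the gene and 1229 bp from its nearer end. Mrpl17 had 132 and 54.8 at chr7:105808559, 2528 bp downstream of the start. Mrpl17 held a further site at +98 with 57.7 and 50.5, while no start is listed for Mrpl15 and Ndufaf6. These 5 genes, with Ndufa6 and Mrps18b below, are the 7 with a site among the 10000 highest summits of both replicates.

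Ndufa6, an accessory subunit, had 115 and 68.6 at chr15:82354625, 334 bp upstream of its start and nearest to its own end. At the next genes the site lay nearer to a neighbour. Mrps18b had 103 and 74 at chr17:35917017, 577 bp upstream and nearer to an end of Ppp1r10. Ndufb6, an accessory subunit, had 87.0 and 72.3 at chr4:40269740, nearer to an end of Topors. Its own start held a site at +43 with 46.9 and 43.3. Over the 106 genes, the highest site lay nearest to an end of the gene itself in 78 and nearest to another protein-coding gene in 28. This count is not given over all genes, so how usual it is was not tested.

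The next 4 genes by score differed in where the site lay. Mrpl48 had 80.3 and 75 at chr7:100607752, nearest to an end of Rab6a, and several starts are listed for it. Ndufb9, an accessory subunit, had 79.2 and 69.7 at chr15:58933832, 31 bp inside its nearer end. Mrpl4 had 96.7 and 36.6 at chr9:21012085, 3246 bp outside the gene. Mrpl1 had 68.6 and 62.8 at −106, so its scores were closer together than those of Mrpl4. At the low end, Ndufaf4, an assembly factor, had 14.2 and 5.48 at −24. Mrpl19, Ndufa11, Ndufb4c and Ndufa1 had 15.5 to 16.2 in replicate 1 and 6.13 to 9.56 in replicate 2.

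In the catalytic core, Ndufs7, which carries the iron-sulfur cluster next to the ubiquinone site, had 62.6 and 41.9 at chr10:80249474, 25 bp downstream of the start. It held a second site at chr10:80261203 with 40.1 and 24. Ndufv1, which binds NADH and flavin, had 48.9 and 45.6 at chr19:4012685, at +70. Ndufs1, Ndufs3, Ndufs8 and Ndufv2 had no shared site, but all 4 had summits in both replicates. Their closest summits of the 2 replicates were 290, 109, 107 and 174 bp apart. Around the start, the summits of replicate 1 and replicate 2 lay at −32 and +77 in Ndufs3, −131 and +75 in Ndufs8, and −211 and +112 in Ndufv2.

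The same held for most of the 21 genes without a shared site, which besides these 4 were Mrpl13, Mrpl14, Mrpl16, Mrpl33, Mrpl39, Mrpl47, Mrpl50, Mrpl53, Mrps6, Mrps23, Mrps28, Mrps30, Ndufaf7, Ndufb4, Ndufb4b, Ndufb5 and Ndufb11. In 19 of them both replicates had summits within 5 kb of an end, and the closest pair lay 106 to 377 bp apart, with a median of 137 bp. Mrps23 had summits of replicate 1 only and Ndufb4b, one of the copies of Ndufb4, of replicate 2 only. Mrps23 also had a shared site 147 bp upstream of its listed start, with 35.9 and 19.1, which lies over 5 kb from both ends in the gene table. Each of the 21 had a summit in at least 1 list, whereas 71.2% of all 9991 protein-coding genes without a shared site had none in either. Counting genes with a summit of each replicate within 5 kb, at any separation, gave 125 of the 127 (98.4%), beside 60.7% of all genes. With pairs up to 200 bp apart counted as shared, 122 had a site (96.1%), beside 58.8%. A gene listed here as having no shared site is therefore mostly one whose summits in the 2 replicates are more than 100 bp apart. Among genes with summits of both replicates, 15.2% of the mitochondrial genes and 10.5% of all genes had no shared site.

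Gene starts are given by RefSeq for 111 of the 127 genes, and distances from them are counted with the start base as 0 and positive values downstream. A shared site lay within 1 kb of the start in 84 of the 111 (75.7%), beside 43.1% of all 17492 protein-coding genes with a start. In replicate 2 taken alone, all 111 had a summit within 1 kb of the start, beside 52.7% of all genes. In replicate 1 taken alone, 110 had one, beside 56.0%, the exception being Ndufb4b. Where a gene had both a site and a start, the highest site lay within 1 kb of the start in 74 of 93 genes (79.6%), beside 61.7% of all genes. The median mean score of those 74 was 33.3, and that of the other 19 was 35.2, beside 38.7 and 40.5 over all genes. Mean scores of at least 60 were found in 4 of the 74 (5.41%) and 6 of the 19 (31.6%), beside 19.2% and 27.5% over all genes. The medians by place were thus close, while high scores made up a smaller share of the sites at the start.

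Of the 91 genes with a shared site within 5 kb of the start, 77 (84.6%) had the nearest one within 250 bp, beside 72.1% of all genes. It lay 0 to 100 bp downstream in 48 (52.7%) and 1 to 250 bp upstream in 25 (27.5%), beside 41.6% and 23%. Measured from the first listed start, 53 sites lay downstream with a median of +51 and 24 upstream with a median of −114.5. The interval from −50 to −25 held no site, while 20 lay from 25 to 50 bp downstream and 9 from −125 to −100. Taken alone, replicate 1 had 3 summits from −50 to −25 and 7 from −75 to −50, and replicate 2 had 0 and 1, so the gap was not seen in replicate 1. Over all genes the downstream median was +54 and the upstream one −93, with 3.59% of sites between −50 and −25.

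**Figure D3:**
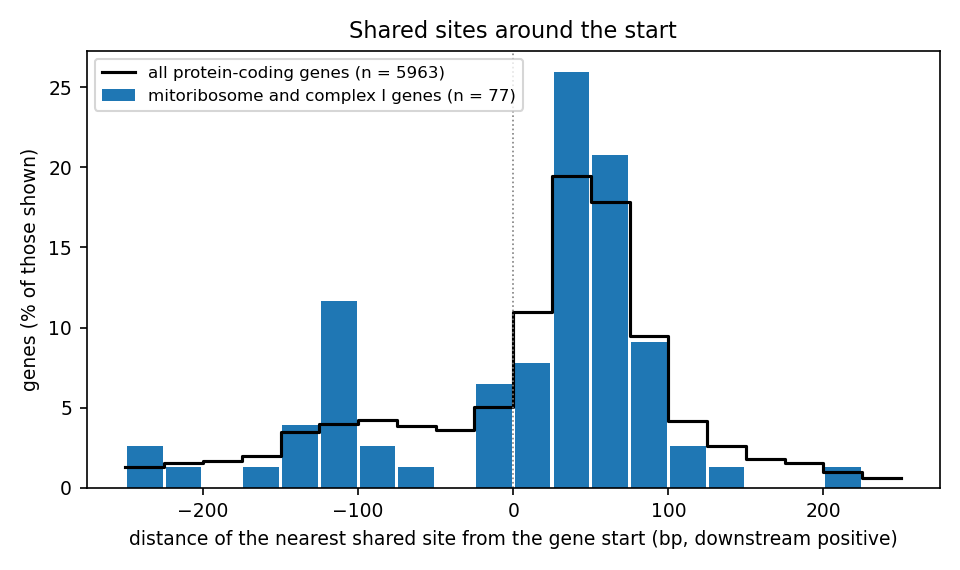
Distance of the nearest shared site from the first listed start (x axis, bp, downstream positive) as percent of sites within 250 bp, in bins of 25 bp, for the mitochondrial genes (bars) and for all protein-coding genes (line). Both have their peak from 25 to 75 bp downstream, and the mitochondrial genes have no shared site from −50 to −25.

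Taking each replicate's nearest summit within 250 bp of the start, both replicates had one in 98 of the 111 genes. Both lay downstream in 50, both upstream in 25 and on opposite sides in the other 23. Of these 23 genes, 19 had the replicate 1 summit upstream and the replicate 2 summit downstream, and 4 the reverse. Summits on opposite sides made up 23.5% of the mitochondrial genes with both, beside 16.3% of all genes, and lay 20 to 377 bp apart with a median of 129. Mrps30 had its summits at −96 in replicate 1 and +24 in replicate 2, Mrpl53 at −96 and +12, and Mrps6 at −120 and +9. Among the genes with no shared site by the 5 kb rule, 16 had both summits near the start, 11 of them with replicate 1 upstream and replicate 2 downstream and 2 the reverse. Over all 674 protein-coding genes of that kind the counts were 302 and 105. Summits kept apart by the 100 bp rule and both near the start fall on opposite sides readily, so these counts restate the rule in part.

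**Figure D4:**
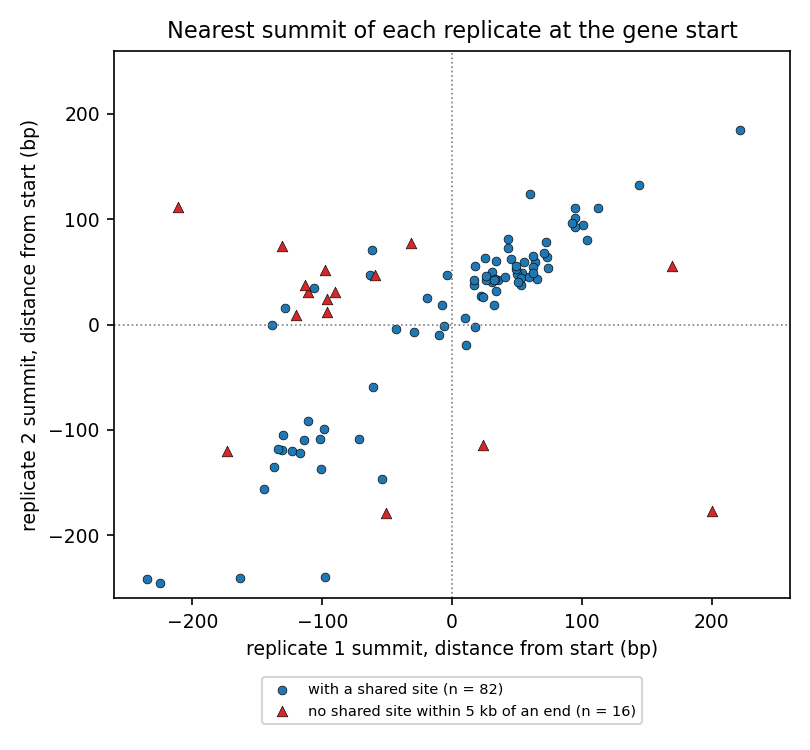
Distance of the nearest summit from the gene start (bp, downstream positive) in replicate 1 (x axis) and replicate 2 (y axis), for the 98 genes with both. Circles are genes with a shared site within 5 kb of either annotated end, wherever it lies, and triangles are genes without one. Of the 16 triangles, 11 have replicate 1 upstream and replicate 2 downstream.

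Some sites belonged to more than 1 of these genes. The neighbours Mrpl36 and Ndufs6, an accessory subunit of complex I, shared 2 sites. The site at chr13:73328429 scored 40.8 and 29.1 and lay at +53 of Ndufs6, and the one at chr13:73331072 scored 17.7 and 16.2 and lay at +63 of Mrpl36. Each gene therefore had a site just downstream of its own start. Mrpl46 and Mrps11, a large- and a small-subunit gene whose starts lie head to head, shared the site at chr7:78782995 with 22.9 and 14.0. The head-to-head pair Mrpl47 and Ndufb5 had 1 summit of each replicate, scored 36.8 and 26.9 and 151 bp apart, and no shared site. A head-to-head partner, a start on the other strand 0 to 1 kb upstream, was present in 37 of the 111 genes (33.3%), beside 8.48% of all. With such a partner, 67.6% had a site within 1 kb of the start, beside 73.0% of all genes with a partner. Without one, 79.7% had a site (59 of 74), beside 40.3%.

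The 300-base promoter windows were searched on both strands for the letters of 7 motifs. A match describes the sequence and is neither a bound site nor a cause. The windows end about 50 bases after the start, while the shared sites downstream of the start had a median of +51. Many sites thus lie outside the searched sequence, and letters beyond the windows entered no count or distance. The forkhead letters TGTTTAC, the core that FOX factors recognise, were in 3 of the 111 windows (2.70%), beside 2.94% of all 17492 promoters. These were Mrpl40, Mrpl44 and the assembly factor Ndufaf1, and all 3 had a site within 1 kb of the start. Such a site was present at 36.5% of all 515 promoters with these letters, and at 75.7% of the 111 mitochondrial genes. The shared site lay 8 bp from the letters in Ndufaf1 and 36 bp in Mrpl40. In Mrpl44, whose product is of the RNase III family, it lay 344 bp away. Over all 188 promoters with these letters and a start site, the median distance was 59.5 bp. Among the 84 genes with a site within 1 kb of the start, 3.57% thus had these letters, beside 2.59% of all genes with such a site.

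The letters of motifs known from mitochondrial gene promoters were more frequent. CCGGAAG, an ETS motif, was in 31 windows (27.9%, exact interval 19.8 to 37.2), beside 11.9% of all promoters. CGCATGCG, within the NRF1 motif, was in 11 (9.91%, 5.05 to 17), beside 2.54%. AAGATGGCG, a YY1 motif, was in 14 (12.6%, 7.07 to 20.3), beside 1.94%. TGACGTCA, the cyclic AMP response element, was in 5 (4.50%), beside 2.34%. Among genes with a shared site within 1 kb of the start, ETS letters were in 29.8% (20.3 to 40.7) beside 20.4% of all such genes, which lies within that interval. In the same comparison NRF1 letters were in 10.7% beside 4.32%, and YY1 letters in 16.7% beside 3.70%. The general promoter letters CCAAT (36.9% beside 39.0%) and GGGCGG (49.5% beside 46.3%) were about as frequent as in all promoters. The median GC content was 59% in these windows and 56.3% in all. Among genes with a start site the order turned, with 58.3% beside 61.7%. GGGCGG was then in 48.8% beside 68.7%.

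**Figure D5:**
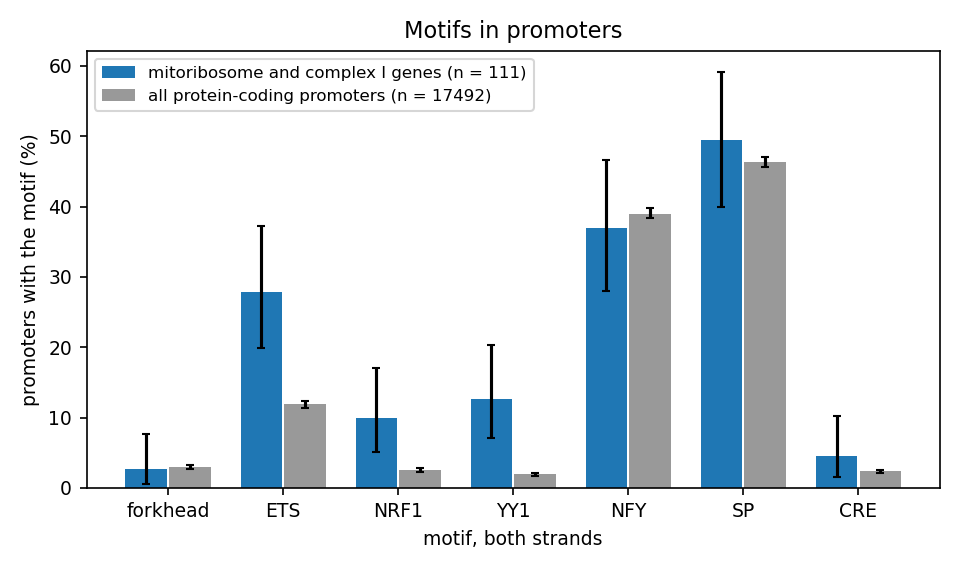
Percent of promoter windows (y axis) with each motif (x axis; NFY stands for CCAAT, SP for GGGCGG and CRE for the cyclic AMP response element) in the 111 mitochondrial genes and in all protein-coding promoters, with exact 95% intervals. The ETS, NRF1 and YY1 letters are in 27.9%, 9.91% and 12.6% of the mitochondrial windows, beside 11.9%, 2.54% and 1.94% of all.

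All 14 genes with YY1 letters had a shared site within 1 kb of the start, beside 84 of the 111 mitochondrial genes with a start (75.7%). They were Mrpl35, Mrpl36, Mrpl37, Mrpl42, Mrps11, Mrps18a, Mrps24, Mrps27, Ndufa9, Ndufaf8, Ndufc1, Ndufs4, Ndufs6 and Ndufs7. Over all genes, 79.1% of the 340 with YY1 letters had a site at the start (269). However, all 111 mitochondrial genes with a start had a summit of replicate 2 alone within 1 kb of it, and 110 one of replicate 1. Those without a shared site there were thus mostly genes whose summits did not pair within 100 bp. The site lay a median of 20 bp from the centre of the letters, and within 25 bp in 8 of the 14, beside a median of 28 bp and 46.1% over all genes. In Ndufs4, an accessory subunit, the site at +37 was 2 bp from them and scored 57.5 and 32.0, and in Ndufs7 it was 3 bp away. The letters themselves lie where shared sites are common, with their centres 0 to 50 bp downstream of the start in 12 of the 14 genes. The median distance was 71 bp from ETS letters in 25 genes and 84 bp from NRF1 letters in 9 genes, near the 64 and 91.5 bp over all genes. The choice of these motif distances was made after the sites had been seen.

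Most genes of each other mitochondrial list also had a site, beside 54.4% of all protein-coding genes. Of 38 nuclear genes of complexes II to V, 34 had one (89.5%); Atp5o, Cox5a, Cox5b and Sdha did not. The highest was at Atp5h, a subunit of the ATP synthase, with 140 and 70.8 at chr11:115412131, which is also one of the 3 sites of its neighbour Mrpl58. Mitochondrial translation factors and tRNA synthetases had sites in 24 of 26 genes, without Ears2 and Pars2, and the initiation factor Mtif3 had the highest, 114 and 57.8. Of 12 genes for maintenance and transcription of mitochondrial DNA, 9 had one, Polg, the DNA polymerase, with 103 and 54.3, while Lrpprc, Polg2 and Tfb1m had none.

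Among 9 regulators of nuclear mitochondrial genes, 7 had a site, with Esrra, a nuclear receptor, highest at 76.8 and 55.2, and Nrf1 and Ppargc1a had none. All 5 mitoribosomal proteins under other names had a site, Dap3 with 49.9 and 42.8 the highest. All 7 complex I assembly factors under other names had one, Timmdc1 with 63.5 and 51.4 the highest. Of 81 cytosolic ribosomal protein genes, 68 had a site (84.0%), with a median highest mean score of 49.4 and the highest at Rplp0, with 135 and 78.7. The share at the mitoribosomal genes, 84.6% (66 of 78), was near that of the cytosolic ribosomal genes, and their median highest mean score was 33.1.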

How the data were processed

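FOXF1 chromatin immunoprecipitation was done on 2 pools of E18.5 lungs with micrococcal nuclease digestion and sonication, per the labels' protocols. Peaks were called with MACS2 on mm10, per the submitters' processing notes, and the input enters only through those calls. The deposited lists hold 1 single-base summit per peak, scored by the authors as −log10 significance. For the aligner, options and depth the sources used here give nothing. Nuclear summits (chromosomes 1 to 19, X, Y) were paired within 100 bp (Python 3.11.15, pandas 2.3.3) and set against RefSeq gene ends, starts and promoter sequences. Highest sites were ranked by the mean of both scores. Shares carry exact Clopper-Pearson 95% intervals from scipy 1.17.1, which cover counting error only. With 1 group of 2 replicates no test was possible, and the pairing step was tested on simulated data. The members, gene lists and motifs were chosen with earlier results of these data known. Named are the 12 highest and 5 lowest genes, the 5 with the most sites, all without a site, the 7 core genes, genes sharing a site and the top gene of each comparison list. One core gene that this rule names is counted but not reported here. Neighbour classes, head-to-head partners, the summits of each replicate around the start, motif distances, the place of the highest site and other named genes were added after values were seen. Alternatives were other pairing distances, windows, score limits, site assignment, motif strands and each replicate alone.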

Additional observations from a re-analysis of the deposited data

Results flagged for a closer look

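The mitochondrial genome, which encodes the remaining core subunits of complex I, lay outside all comparisons, and both lists held summits on it: 10 in replicate 1 and 6 in replicate 2. In replicate 1 their scores ran from 2.50 to 43.4 and in replicate 2 from 3.28 to 14.0. At 4 places the summits of the replicates paired within 100 bp: in mt-Rnr1 (17.1 and 8.50), in ND2 (29.4 and 10.6), in ND5 (43.4 and 14.0) and at position 15314 of replicate 1 (9.28 and 6.18). ND2 and ND5 encode complex I subunits. Chromatin input enters these scores only through the authors' peak calls. It was not analysed here on its own, so its level there is not shown.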

How the results depend on the processing

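With 1 kb, 20 kb, 50 bp, 200 bp or scores of at least 10, with sites given to the nearest gene end only or with sites anywhere in the gene counted, the number of genes with a site stayed between 86 and 122 of 127, and above the share of all genes in each. Sites per gene were above the mean of all genes under these settings except in-gene counting (1.38 beside 1.77). The number of sites went from 155 to 99 within 1 kb and to 287 within 20 kb. With the 10000 highest summits of each replicate, 7 genes, 8 sites, 2 start sites and 11 of the 178 genes of the comparison lists (154 without that limit, cytosolic ribosomal genes included) were counted, and the median score was 105; the shares of 5.51% and 6.18% were then below the 7.01% of all genes. Start sites under that limit were in 1.8% of the mitochondrial genes with a start, beside 3.35% of all. Each replicate alone gave 126 genes, 202 to 242 sites, median scores of 30.0 to 40.8, 174 to 175 comparison genes and 110 to 111 start sites. The 126 genes (99.2%) stood beside 60.8% of all genes in replicate 2 alone and 67.4% in replicate 1 alone. Sites per gene were 1.62 beside 1.13 in replicate 2 and 1.94 beside 1.54 in replicate 1. On the gene strand only, ETS letters were in 17.1%, CCAAT in 18% and GGGCGG in 27.9% of promoters, and among genes with a start site the cyclic AMP response element was in 1.19%. Of the named genes' highest sites, Mrpl15, Mrpl4, Mrps18a, Ndufaf6 and Mrpl17 (93.5 to 54.1) moved to lower-scored sites within 1 kb, Mrpl12 to a higher one within 20 kb, Ndufa6 to 40.7 and Mrpl17 to 54.1 at 50 bp, where Mrpl48 had no site, and Ndufa11 to 21.4 in replicate 1 alone. No paired analysis was possible because there is only 1 group. Limits are the 2 pools, unknown depth, whole lung as the source, and starts listed for 111 of 127 genes.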

Other observations

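The replicates differed in which side of the start they marked. Of the 98 mitochondrial genes with a summit of each replicate within 250 bp of the start, the replicate 1 summit was upstream in 44 (44.9%) and that of replicate 2 in 29 (29.6%). Over all 6863 protein-coding genes with both, the shares were 37.3% and 29.6%.

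The cyclic AMP response element was in the promoters of Mrpl16, Mrpl49, Ndufa10, Ndufa11 and Ndufb2, and 1 of these 5 had a shared site within 1 kb of the start. Over all genes, 64.6% of the 410 with these letters had one. All 5 mitochondrial genes had a summit of each replicate within 1 kb of the start, as did nearly all mitochondrial genes with a start. Those without a shared site there thus had summits that did not pair within 100 bp. Promoters of all genes with a start site held GGGCGG in 68.7%, beside 48.8% of the mitochondrial genes with one.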
